A study of Mus musculus with 6 samples.

Results

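Imprinted genes are genes of which only the copy inherited from the mother or only the copy inherited from the father is active, and 40 of them were followed here in mouse embryonic stem cells. They were taken as a list of symbols, and every probe that the platform's annotation assigns to them was used, which gave 78 of the 45281 probes on the array for 34 of the 40 genes. No probe was named for H19, Airn, Slc22a3, Zrsr1, Mirg or Snrpn, so these were not analysed here. The arrays were Illumina bead arrays hybridised with biotin-labelled cRNA, 1 per sample, from 3 samples that received an shRNA vector against Chd9 (shChd9), a chromodomain helicase that acts on nucleosomes, and 3 samples labelled as control transfections. All 6 cultures grew in serum with leukemia inhibitory factor on a layer of mitomycin C-treated fibroblasts, and cells that had taken up a vector by electroporation were selected with puromycin. The labels give no cell line, strain or control vector sequence and do not say whether the replicates were separate cultures, so p-values measure only how far these samples spread, and that spread may be technical.

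Imprinting is set in the germ line, where DNA methylation is laid down on the control region of a domain in eggs or in sperm and is then kept through the cell divisions of the embryo. One control region usually governs several neighbours, some read from the maternal and some from the paternal copy, often through a long non-coding RNA that silences genes in cis or through an insulator between an enhancer and a promoter. Many paternally expressed members promote fetal and placental growth and many maternally expressed members restrain it. Embryonic stem cells can lose or gain methylation at these regions in culture, and the level of an imprinted RNA is often used to follow that. The arrays measure total RNA of a gene and cannot tell its parental alleles apart. The expressed allele given below is background from other mouse work and was not measured in these cells for any member. For some members, Ascl2, Cd81, Tssc4, Ube3a and Commd1 among them, it holds in certain tissues such as placenta or brain.

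Chd9 RNA had lower values in every shChd9 sample on both of its probes detected on all arrays, at 6.56, 6.32 and 6.64 in shChd9 against 7.36, 7.74 and 7.80 in control samples on the brighter one (log2 intensity). The limma log2 fold change was -1.13 on that probe, 2.18-fold lower at a p of 0.000131 and an adjusted p of 0.389 over genes, so that Chd9 itself did not pass the test. The other gave -1.11, and a dimmer probe, ILMN_1226311, gave 0.35 with overlapping groups. All 14 stem cell markers examined were measured, with a mean log2 intensity between 10.4 and 10.7 on every array. Markers of the fibroblast feeder layer were present too, since 26 of the 31 with a probe passed the detection filter, Col1a1, Thy1 and Vim among them, while Col1a2, Col3a1, Col5a2, Postn and Fap did not. Their mean was 9.35, 8.37 and 8.85 in shChd9 and 8.85, 7.99 and 8.52 in control samples (log2 intensity), and the log2 fold changes of all 26 were above 0 (median 0.41). RNA of the 2 cell types is mixed on these arrays, so that a change in the number of cells of a type and a change in RNA per cell cannot be told apart. Between 39.2% and 40.8% of all probes were detected per array, and the 3 arrays per group limit the precision of every value.

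A probe counted as detected where the deposited detection p-value was under 0.05, and it was tested where this held on at least 3 of the 6 arrays. By this rule 24 of the 34 genes were tested, or 70.6%, against 53.5% of the 19057 genes with a probe on the array. They were tested with 35 probes, 3 further genes were detected on 1 or 2 arrays and 7 on none. Of the 24, 20 had a probe detected on all 6 arrays, and Usp29, Kcnq1, Kcnq1ot1 and Ascl2 had one on 3 to 5. The probes detected per array numbered 38, 33 and 31 in shChd9 and 38, 35 and 38 in control samples, of 78, so the groups overlapped. No detection was seen on any array for Zim1, a zinc finger gene of the Peg3 domain, for Sgce, which encodes epsilon-sarcoglycan, or its neighbour Asb4, for the histone chaperone-like Nap1l5, for Peg12, for the zinc finger transcription factor Plagl1, or for the non-coding RNA Rian. Absence of detection on 1 to 3 probes says only that these probes did not rise above the negative control beads.

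**Figure D1:**
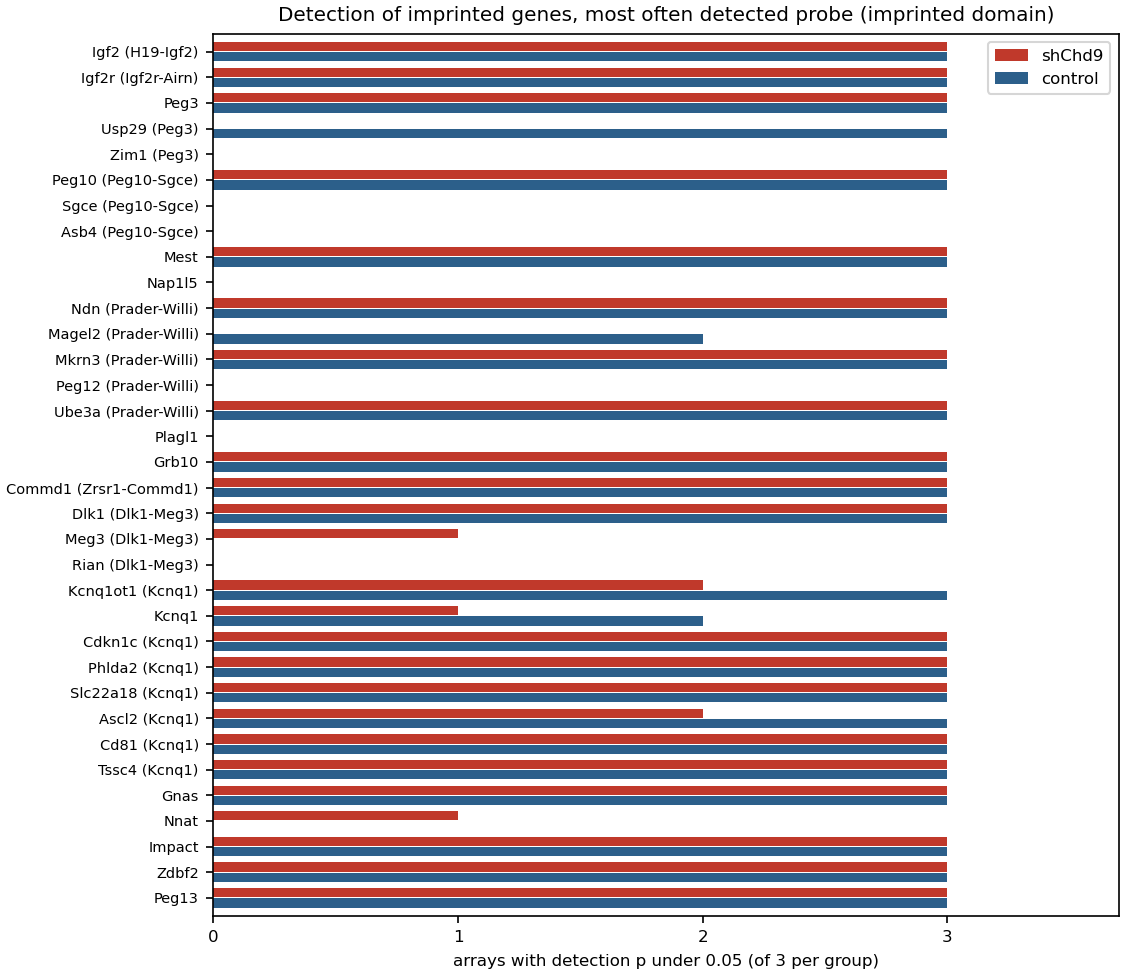
Number of arrays, of 3 in each group, on which the most often detected probe of each of the 34 imprinted genes with a probe had a detection p-value under 0.05, shChd9 in red above control in blue, with the imprinted domain in brackets. Most genes were detected on all arrays or on none, Usp29 was detected on 3 control and 0 shChd9 arrays, and Magel2 on 2 control and 0 shChd9 arrays.

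Detection followed the domains in part. All 8 genes of the Kcnq1 domain were tested, namely the paternally expressed antisense RNA Kcnq1ot1 and the 7 maternally expressed genes it can silence. In the Dlk1-Meg3 domain the paternally expressed Dlk1 was detected on 6 arrays, whereas the maternally expressed non-coding RNA Meg3 was detected by 1 of its 3 probes on 1 array, shChd9 replicate 3. At that probe (ILMN_1227149) Meg3 measured 4.26, 4.32 and 5.07 in shChd9 and 4.39, 4.45 and 4.30 in control samples (log2 intensity). The lowest signal of a detected probe was 4.80 to 4.86 on the arrays, so that 5 of the 6 Meg3 values lay below it. Of the paternally expressed genes of the Prader-Willi domain, Ndn and Mkrn3 were detected on all 6 arrays. Magel2, a MAGE family gene next to Ndn, measured 4.37, 4.72 and 4.54 in shChd9 and 4.52, 4.91 and 5.80 in control samples, and was detected on 0 and 2 arrays. Nnat, a small membrane protein gene, had 4 probes, 1 of which was detected on 1 array, with 4.87, 4.37 and 4.48 in shChd9 and 4.54, 4.50 and 4.46 in control samples. The single Rian probe measured 4.77, 4.42 and 4.74 in shChd9 and 4.38, 4.50 and 4.40 in control samples, all below the lowest detected signal.

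Promoter sequences are shown for 4 members that differ in detection or stood apart between the groups. Imprinting acts through methylation of control regions, and whether these windows lie in one was not analysed here. Windows of 300 bases, from 250 before to 50 after an annotated start, come from RefSeq (GRCm38.p6). For 33 of the 40 genes, 49 windows were used here. Where a gene had several, the window with the most CG dinucleotides is shown. Capitals mark each CG dinucleotide and each TGCCGC or its reverse complement GCGGCA, the hexamer that the zinc finger protein Zfp57 is known to bind when its CG is methylated. The windows are Mest at chr6:30737800-30738099 (plus strand), Nap1l5 at chr6:58907077-58907376 (minus strand), Grb10 at chr11:12037371-12037670 (minus strand) and Usp29 at chr7:6730333-6730632 (plus strand), each written 5′ to 3′ on the strand of the gene.
Mest: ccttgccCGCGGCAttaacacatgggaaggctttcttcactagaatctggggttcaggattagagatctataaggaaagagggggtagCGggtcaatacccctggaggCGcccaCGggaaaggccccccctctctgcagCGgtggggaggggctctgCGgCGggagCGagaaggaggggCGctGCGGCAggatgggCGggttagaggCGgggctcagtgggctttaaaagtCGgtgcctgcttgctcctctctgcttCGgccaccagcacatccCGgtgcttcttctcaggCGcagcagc
Nap1l5: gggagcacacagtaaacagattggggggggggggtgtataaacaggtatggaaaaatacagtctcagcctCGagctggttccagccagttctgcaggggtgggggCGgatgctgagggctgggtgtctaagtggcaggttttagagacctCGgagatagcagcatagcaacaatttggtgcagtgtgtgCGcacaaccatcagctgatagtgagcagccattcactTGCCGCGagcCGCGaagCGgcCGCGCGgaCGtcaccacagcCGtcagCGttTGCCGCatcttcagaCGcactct
Grb10: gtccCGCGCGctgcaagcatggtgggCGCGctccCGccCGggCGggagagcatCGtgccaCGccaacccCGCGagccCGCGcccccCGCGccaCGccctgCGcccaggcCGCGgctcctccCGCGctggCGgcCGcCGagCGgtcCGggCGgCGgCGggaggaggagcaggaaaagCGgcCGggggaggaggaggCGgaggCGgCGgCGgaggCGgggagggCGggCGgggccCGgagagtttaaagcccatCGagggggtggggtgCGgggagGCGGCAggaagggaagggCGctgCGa
Usp29: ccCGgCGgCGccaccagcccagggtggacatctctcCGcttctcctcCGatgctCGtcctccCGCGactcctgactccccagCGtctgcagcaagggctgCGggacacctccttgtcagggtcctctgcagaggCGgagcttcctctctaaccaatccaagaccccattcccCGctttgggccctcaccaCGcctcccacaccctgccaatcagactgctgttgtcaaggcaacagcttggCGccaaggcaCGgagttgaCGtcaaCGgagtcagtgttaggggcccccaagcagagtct

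The promoter windows of imprinted genes were richer in CG than those of other genes, and the hexamer was found in several. The median was 14 CG dinucleotides in the 49 windows of members and 7 in all 32851 windows of the table. No window of Impact was among the 49. The hexamer, searched on both strands, was present in 12 windows of 11 members, or 24.5%, and in 11.6% of all windows. Since the hexamer holds a CG, its share moves with CG content. It was present in 24.7% of all windows with at least 14 CG and in 4.17% of those with fewer. Among windows of members the shares were 40% (10 of 25 windows) and 8.33% (2 of 24). Overlapping windows of a gene are counted separately, such as those of Mest that start at bases 30737800 and 30737803, both with the hexamer. The Mest window above held 17 CG and 2 hexamers and Mest was detected on all 6 arrays. The Nap1l5 window likewise held 17 CG and 2 hexamers, and Nap1l5 was detected on none. The Grb10 window held 45 CG and 1 hexamer. The other Grb10 window held 9 CG and a further Mest window 8 CG, both without the hexamer. The Usp29 window held 17 CG and no hexamer, and it shares 263 bases with the window of Peg3, which is read from the opposite strand. A letter match is a description of the window and shows no binding, and methylation was not measured here.

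No imprinted gene passed the test between shChd9 and control samples. Values from here on are log2 intensities after background correction and quantile normalization, and fold changes are shChd9 over control on the log2 scale from limma, adjusted by Benjamini-Hochberg over all genes tested. With the adjusted p held under 0.05, limma found 0 of the 24 members and 0 of all 10194 genes tested (0%). At an unadjusted p under 0.05 it found 4 members, or 16.7%, against 524 of all genes, or 5.14%. These 4 were Peg13 and Peg10, with higher values (2.22% of all genes), and Usp29 and Phlda2, with lower values in shChd9 samples (2.92% of all genes). The groups did not overlap in 6 members, namely Peg13, Peg10, Dlk1 and Grb10 with higher and Usp29 and Impact with lower values in shChd9 samples, which is 25% of the 24 against 10.5% of all genes. Over all genes 4.4% lay higher and 6.08% lower without overlap. Usp29 passed the detection filter only through the control arrays and so had to differ; without it the counts were 3 and 5 of 23 members. Of the 24 members 13 had a positive and 11 a negative log2 fold change, with a median of 0.07, against a median of -0.0045 over all genes. The median was also 0.07 with Usp29 set to its bound, and 0.13 without Usp29. The 95% interval lay within 2-fold in either direction for 20 of the 24. These 20 include Usp29, whose interval sets no limit because its shChd9 values lay below detection. They also include Kcnq1, Kcnq1ot1 and Ascl2, which were not detected on every array. By probe, 6 of 35 had an unadjusted p under 0.05, against 5.32% of all 17719 probes, and 4 of the 6 were higher (2.35% of all probes) and 2 lower (2.96%) in shChd9 samples. The groups did not overlap at 7 of the 35 probes, 20% against 10.3% of all probes, of which 5 were higher (4.52%) and 2 lower (5.77%). Both probe counts, and the lower probes in each, include the Usp29 probe. That probe passed the detection filter only through the control arrays and so had to differ.

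**Figure D2:**
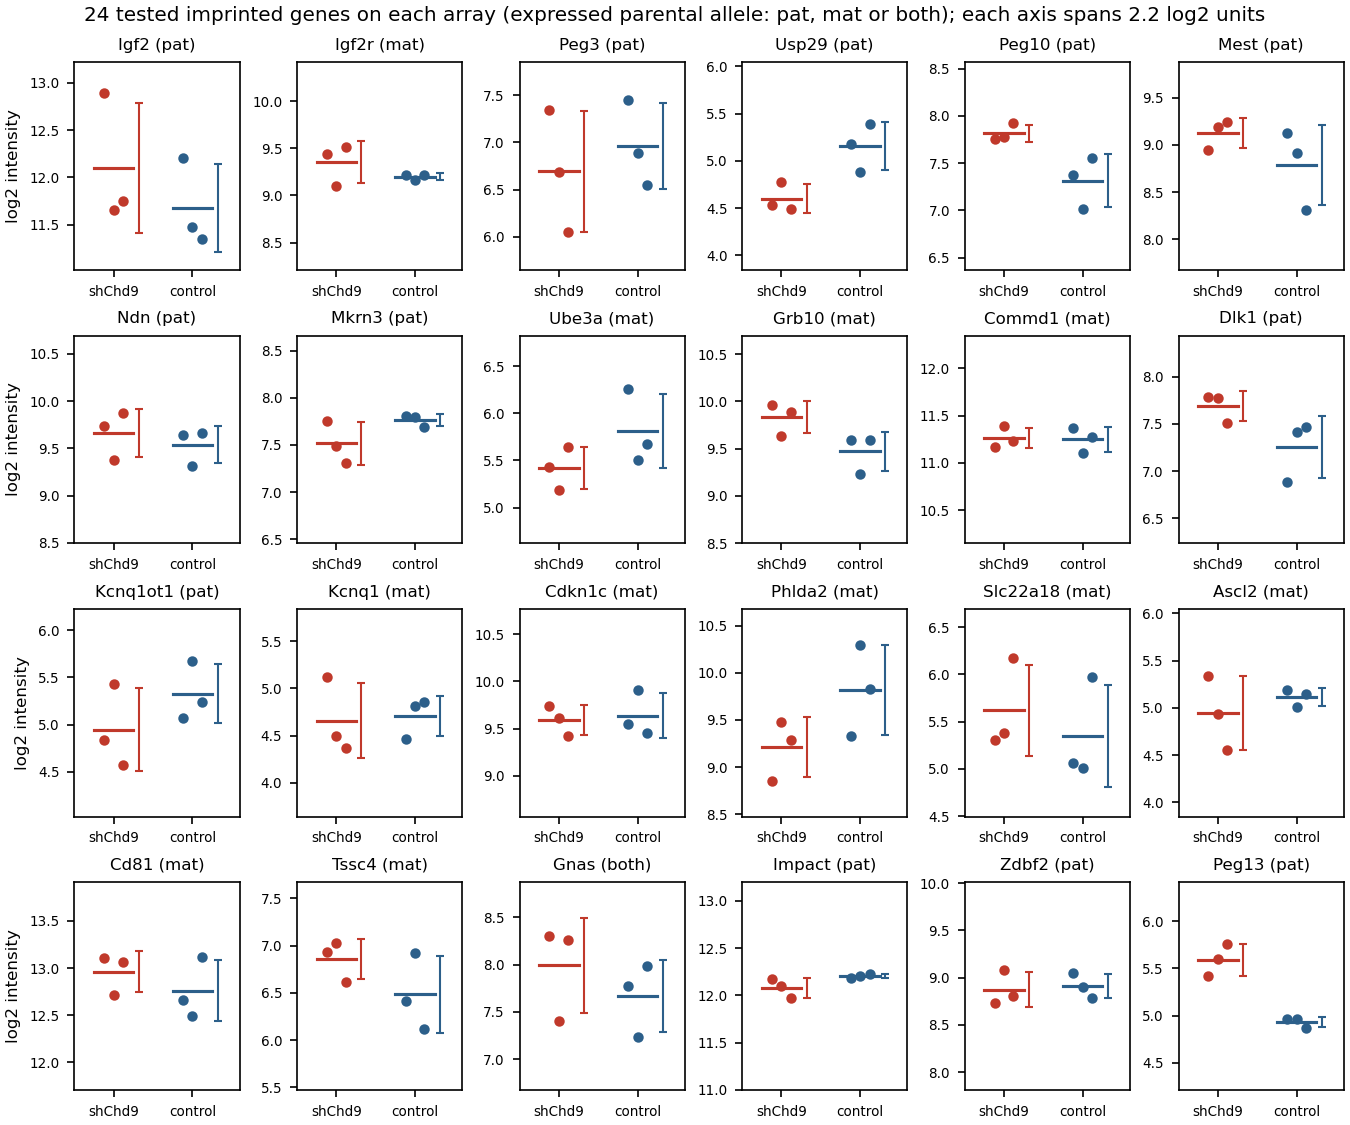
Log2 intensity of the 24 tested imprinted genes on each array, with the 3 shChd9 arrays in red at the left and the 3 control arrays in blue at the right of each panel. Horizontal lines are means, bars beside them are the SD of 3 arrays, every axis spans the same log2 range around its own centre, and Peg13 is the panel in which all shChd9 values lie furthest from all control values.

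Signs were mixed among the genes of either parental allele. The 12 tested genes expressed from the paternal copy had 6 positive and 6 negative log2 fold changes with a median of 0.04, and 3 of them, Peg13, Peg10 and Usp29, had an unadjusted limma p under 0.05, against 5.14% of all genes. The 11 expressed from the maternal copy had 6 positive and 5 negative log2 fold changes with a median of 0.02, and 1 of them, Phlda2, had such a p. The groups did not overlap in 5 of the 12 paternal genes, or 41.7%, and in 1 of the 11 maternal genes, or 9.09%. Over all genes the share was 10.5%. The paternal counts of 3 and 5 include Usp29, as does that of 6 negative values. Usp29 passed the detection filter only through the control arrays and so had to differ. The paternal median was also 0.04 with Usp29 set to its bound. Gnas, which uses a different copy for different transcripts, is in neither count. The difference between the alleles was not tested.

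**Figure D3:**
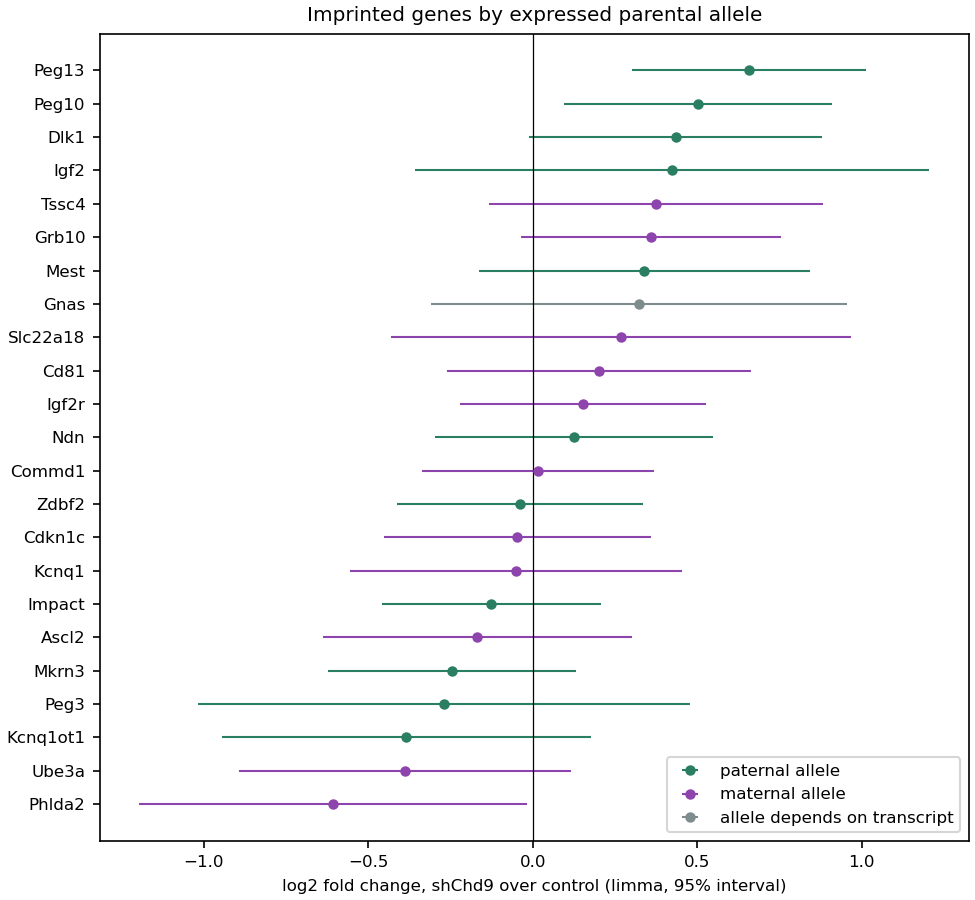
Log2 fold change of shChd9 over control with its 95% interval (limma) for 23 tested imprinted genes, ordered by value and coloured by the parental allele from which the gene is expressed. Usp29, below detection in shChd9 samples, is not drawn, both colours lie on both sides of 0, and 3 intervals leave out 0.

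Peg13, a paternally expressed non-coding RNA gene that lies within an intron of Trappc9, was higher on each shChd9 array than on any control array. Peg13 measured 5.42, 5.60 and 5.76 in shChd9 samples, against 4.96, 4.97 and 4.87 in control samples (log2 intensity). All shChd9 values lay above all control values, although the probe was dim, with control values just above the lowest detected signal. The means were 5.59 ± 0.17 and 4.93 ± 0.06 (SD, n = 3 each), a log2 fold change of 0.66 with a 95% interval of 0.30 to 1.01, a p of 0.00224 and an adjusted p of 0.924 (limma). With the mean of the feeder markers on each array as covariate (the feeder mean) the log2 fold change was 0.70 ± 0.18 (SE). Its size depended on the background correction, at 0.20 without correction and in the deposited series table and 0.29 with normexp, a background model that uses no control beads.

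Peg10, a retrotransposon-derived gene that the mouse placenta needs, was also higher on every shChd9 array. Peg10 measured 7.76, 7.77 and 7.92 in shChd9 samples, against 7.37, 7.01 and 7.56 in control samples. The shChd9 values lay close together and the control values were spread more widely below them, with means of 7.82 ± 0.09 and 7.31 ± 0.28 (SD, n = 3 each). The log2 fold change was 0.50 ± 0.18 (SE) at a p of 0.0207 and an adjusted p of 0.924 (limma), and 0.42 ± 0.20 with the feeder mean as covariate. The neighbouring paternally expressed Sgce, with which Peg10 shares a control region, was not detected, so the domain is represented by Peg10 alone.

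In the Peg3 domain Usp29, a gene of the ubiquitin-specific protease family, was lower on each shChd9 array. Usp29 measured 4.53, 4.78 and 4.49 in shChd9 samples, against 5.18, 4.89 and 5.39 in control samples. It was detected on 0 shChd9 and 3 control arrays, and so passed the detection filter through the control samples alone. Usp29 has only a bound in shChd9 samples, where it was at least 1.25-fold lower with each shChd9 value raised to the dimmest detected signal of its array. This bound was not tested, and the limma adjusted p of 0.924 belongs to the values as measured. Usp29 could not be tested with a control array left out, since it then passed the filter no longer. The other Usp29 probes were detected on 1 array or none. Peg3, the zinc finger gene that starts from the same promoter region on the opposite strand, measured 7.34, 6.68 and 6.05 in shChd9 and 7.44, 6.89 and 6.55 in control samples. These groups overlapped, with a log2 fold change of -0.27 ± 0.33 (SE), an interval of -1.02 to 0.48 and an adjusted p of 0.960 (limma). A dimmer Peg3 probe gave -0.30 ± 0.27. Without shChd9 replicate 3, the array with the lowest value, the Peg3 log2 fold change was 0.05.

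Among growth factor signalling members, Igf2 had overlapping groups and Grb10 had groups separated by a narrow gap. Igf2, the fetal insulin-like growth factor, measured 12.89, 11.66 and 11.74 in shChd9 samples, against 12.21, 11.47 and 11.34 in control samples. The groups overlapped, the highest value being shChd9 replicate 1, and the log2 fold change was 0.42 ± 0.35 (SE), with an interval of -0.36 to 1.21 and an adjusted p of 0.956 (limma). With the feeder mean as covariate it was -0.0011 ± 0.26, and without shChd9 replicate 1 it was 0.02. Grb10, an adaptor protein that restrains signalling from insulin and IGF receptors, measured 9.96, 9.64 and 9.89 in shChd9 samples, against 9.59, 9.23 and 9.60 in control samples. Its groups did not overlap, but the lowest shChd9 and the highest control value were 9.64 and 9.60. The log2 fold change was 0.36 ± 0.18 (SE) at an adjusted p of 0.954 (limma), 0.17 ± 0.17 on a dimmer probe, and 0.21 ± 0.17 with the feeder mean as covariate.

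Igf2r, the receptor that takes Igf2 to the lysosome, had different values on its probes. On the brighter probe, ILMN_2931095, Igf2r measured 9.44, 9.10 and 9.52 in shChd9 and 9.22, 9.16 and 9.22 in control samples, with a log2 fold change of 0.15 ± 0.17 (SE). On ILMN_2931096 it measured 9.30, 9.15 and 9.38 in shChd9 and 8.52, 8.63 and 8.99 in control samples, and these groups did not overlap. That probe had a log2 fold change of 0.56 ± 0.18 at a p of 0.0105 (limma, 0.911 after adjustment over all probes). Where the probes lie on the transcript was not analysed here.

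Dlk1, a delta-like membrane protein of progenitor cells, was higher on each shChd9 array on its brighter probe. Dlk1 measured 7.79, 7.78 and 7.51 in shChd9 samples, against 6.88, 7.42 and 7.47 in control samples. Control replicate 1 was the low array, and the lowest shChd9 and highest control values were close, at 7.51 and 7.47. The log2 fold change was 0.43 ± 0.20 (SE), with an interval of -0.01 to 0.88 and an adjusted p of 0.954 (limma), and it was 0.25 without control replicate 1. The dimmer Dlk1 probe gave 0.25 ± 0.21, with overlapping groups. With the feeder mean as covariate the brighter probe gave 0.53 ± 0.22.

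Within the Kcnq1 domain Phlda2, which limits growth of the placenta, had the lowest log2 fold change of the tested members apart from Usp29. Usp29 has only a bound and was not ranked. Phlda2 measured 8.86, 9.48 and 9.29 in shChd9 samples, against 9.33, 10.29 and 9.83 in control samples. The groups overlapped, since control replicate 1 lay below shChd9 replicate 2. The log2 fold change was -0.61 ± 0.26 (SE), with an interval of -1.20 to -0.02, a p of 0.0451 and an adjusted p of 0.942 (limma). With the feeder mean as covariate the Phlda2 log2 fold change was -0.27 ± 0.18, and it was -0.37 without control replicate 2.

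The other genes of the Kcnq1 domain had overlapping groups. Cdkn1c, the cyclin-dependent kinase inhibitor p57, measured 9.74, 9.61 and 9.42 in shChd9 and 9.55, 9.91 and 9.46 in control samples, a log2 fold change of -0.05 ± 0.18 (SE). Its interval of -0.45 to 0.36 leaves out a change of 2-fold in either direction. Kcnq1ot1 measured 4.84, 5.43 and 4.57 in shChd9 and 5.07, 5.68 and 5.24 in control samples, close to background, with a log2 fold change of -0.38 ± 0.25. It was -0.62 without shChd9 replicate 2, -0.20 without shChd9 replicate 3 and -0.12 with the feeder mean as covariate. Slc22a18, a membrane transporter, measured 5.30, 5.38 and 6.17 in shChd9 and 5.06, 5.01 and 5.98 in control samples, with a log2 fold change of 0.27 ± 0.31. The tetraspanin Cd81 had a log2 fold change of 0.20 ± 0.20, the spliceosome factor Tssc4 0.37 ± 0.23, the trophoblast transcription factor Ascl2 -0.17 ± 0.21 and the potassium channel gene Kcnq1 -0.05 ± 0.22. A dimmer Tssc4 probe, detected on all 6 arrays, gave 0.05 ± 0.20. Over the 8 genes the median was -0.05, with 3 positive and 5 negative values, and the lowest adjusted p was 0.942 (limma).

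Among the remaining paternally expressed genes, Mest, a hydrolase-fold protein of the endoplasmic reticulum, was measured by 3 probes. On the brightest Mest had 8.94, 9.19 and 9.24 in shChd9 and 9.13, 8.92 and 8.31 in control samples, with a log2 fold change of 0.34 ± 0.22 (SE) and an adjusted p of 0.954 (limma). It was 0.10 without control replicate 3 and 0.51 without control replicate 1. Its other probes gave 0.20 ± 0.22 and 0.51 ± 0.20, the second of these at an unadjusted limma p of 0.0330, and the groups overlapped on all 3. Impact, an inhibitor of the kinase Gcn2, measured 12.17, 12.10 and 11.97 in shChd9 and 12.19, 12.20 and 12.22 in control samples. The Impact groups did not overlap, the control arrays had an SD of 0.02, and the log2 fold change was -0.13 ± 0.15. A dimmer Impact probe, detected on all 6 arrays, gave -0.16 ± 0.16 with overlapping groups. Ndn, the MAGE protein necdin, had a log2 fold change of 0.13 ± 0.19, the makorin gene Mkrn3 -0.25 ± 0.17 and the zinc finger gene Zdbf2 -0.04 ± 0.17.

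Snrpn itself had no named probe, but Snurf, the upstream reading frame on the same transcript, had 3 detected probes. On the brightest, ILMN_1247894, Snurf measured 13.40, 13.50 and 13.28 in shChd9 and 13.41, 13.42 and 13.43 in control samples. The log2 fold changes on the 3 probes were -0.03 ± 0.15, -0.03 ± 0.15 and 0.16 ± 0.14 (SE). Snurf was added because Snrpn could not be matched, and it is not counted among the members.

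The maternally expressed ubiquitin ligase Ube3a measured 5.44, 5.19 and 5.64 in shChd9 and 6.25, 5.50 and 5.67 in control samples on its brightest probe, with a log2 fold change of -0.39 ± 0.22 (SE). The other tested Ube3a probe, detected on 3 arrays, gave -0.13 ± 0.18. Commd1, a COMM domain protein, had the smallest fold change of the 24, at 0.02 ± 0.16, with a dimmer probe at -0.06 ± 0.22, and was the 1 gene of 10 with several tested probes whose probes differed in sign. Gnas, which encodes the alpha subunit of the stimulatory G protein and has several alternative first exons, had 10 probes, of which 2 were tested. The brighter Gnas probe measured 8.30, 7.41 and 8.26 in shChd9 and 7.78, 7.24 and 7.99 in control samples, with overlapping groups. Its log2 fold change was 0.32 ± 0.28, with 0.31 ± 0.21 on the other tested probe, and -0.0077 ± 0.22 with the feeder mean as covariate.

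Imprinted genes included some of the most and some of the least variable genes between arrays. For 5 members, Igf2, Peg3, Phlda2, Slc22a18 and Gnas, the SD over all 6 arrays was larger than that of over 90% of genes tested. Igf2 had an SD of 0.58, larger than that of 97.6% of genes, and a range of 1.55 between its lowest and highest array (log2 intensity). Peg3 had an SD of 0.52 and Phlda2 of 0.49. In contrast, Impact had an SD of 0.09 and Commd1 of 0.11, smaller than those of over 90% of genes. The median member had an SD above that of 77.9% of genes. This SD includes any difference between the groups.

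Igf2, Phlda2 and Gnas, 3 of the 5 most variable members, followed the feeder markers from array to array, whereas Peg3 and Slc22a18 had a Pearson r of 0.30 and 0.18. None of the 24 relations passed adjustment. Over the 6 arrays Phlda2 had a Pearson r of -0.94 with the feeder marker mean (exact permutation test, two-sided, p = 0.00972, adjusted p = 0.180) and a Spearman rho of -0.94 (exact p = 0.0167, adjusted p = 0.133). Without the 2 arrays farthest from the median, shChd9 replicate 1 and control replicate 2, its r was -0.65. Kcnq1ot1 had an r of -0.84 and a rho of -0.94 (exact permutation p = 0.0375 and 0.0167), and -0.83 without those arrays. In the other direction, Grb10 had an r of 0.89 and a rho of 0.77 (exact permutation p = 0.0347 and 0.103), and an r of 0.45 without those arrays, so that its relation rests on them in part. Gnas had an r of 0.87 and a rho of 0.94 (exact permutation p = 0.0236 and 0.0167), and 0.66 without them. Igf2 had an r of 0.85 and a rho of 0.77 (exact permutation p = 0.0306 and 0.103), and 0.66 without them. These 5 were the members with an exact p under 0.05 for r, 20.8% of the 24 against 12.9% of the 10168 genes tested other than the markers, each at an adjusted p of 0.180. By Spearman rho, 5 members had an exact p under 0.05, 20.8% against 8.74%, and these were Phlda2, Kcnq1ot1, Gnas, Igf2r and Ndn. Peg13 had an r of 0.35 and Dlk1 of 0.08, with exact permutation p of 0.508 and 0.874. Feeder markers also averaged higher in the shChd9 samples. In a limma fit with the group, which takes the slope on the feeder mean within groups, Phlda2 had a slope of -0.84 ± 0.21 (SE), Igf2 of 1.05 ± 0.31, Gnas of 0.82 ± 0.26 and Kcnq1ot1 of -0.65 ± 0.26 (log2 intensity per log2 unit of the feeder mean). These 4 had an unadjusted p under 0.05, as 12% of those 10168 genes had, and adjusted over all genes 0 members and 0.806% of genes passed, with adjusted p of 0.135 for Phlda2 and 0.202 for Igf2 (limma).

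**Figure D4:**
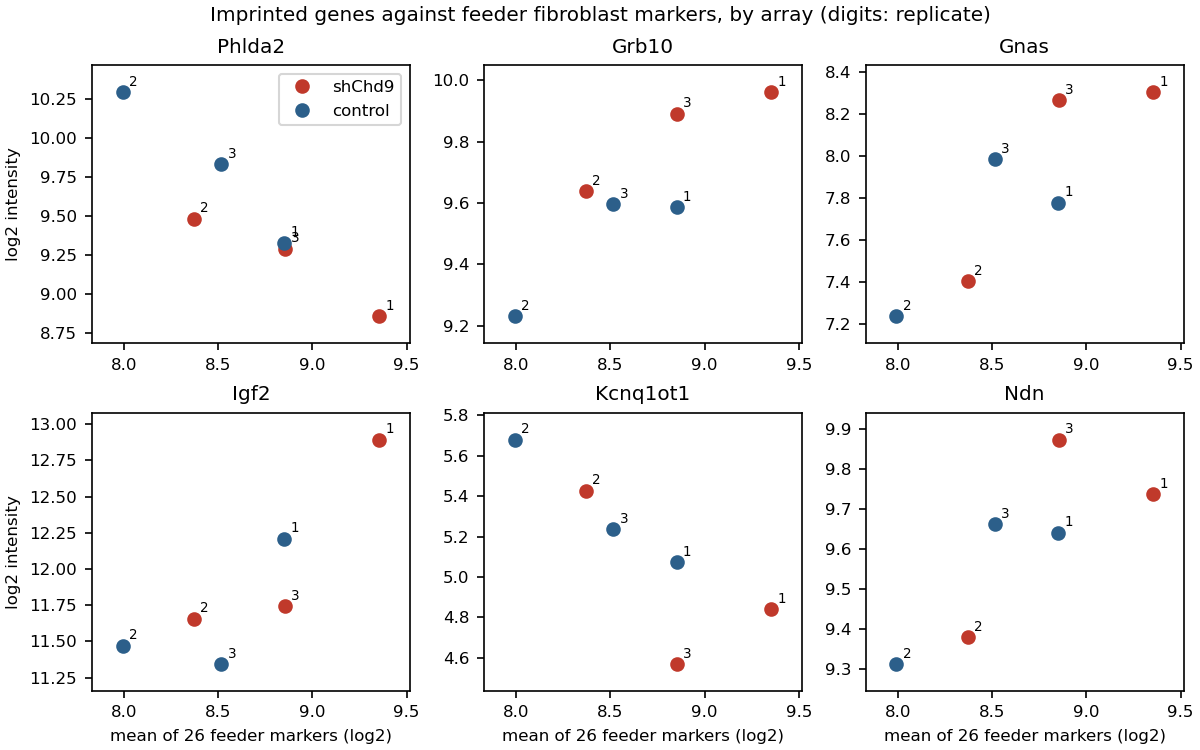
Log2 intensity of the 6 imprinted genes with the largest absolute Pearson r (vertical axes) against the mean log2 intensity of 26 feeder fibroblast markers (horizontal axes) on each array, with shChd9 in red, control in blue and the replicate beside each point. Phlda2 and Kcnq1ot1 fall and Grb10, Gnas, Igf2 and Ndn rise along the axis, and shChd9 replicate 1 and control replicate 2 form its ends.

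Igf2, Gnas, Phlda2 and Grb10 were singled out for their correlation with the feeder mean, so that smaller fold changes with that mean in the fit are no separate evidence. The log2 fold changes of Igf2 and Gnas became -0.0011 and -0.0077, that of Phlda2 became -0.27 and that of Grb10 0.21. Those of Peg13 at 0.70, Dlk1 at 0.53, Ube3a at -0.59 and Peg3 at -0.52 were further from 0 than without the covariate, that of Peg10 was 0.42, and that of Cdkn1c turned to 0.0049. The median over the 24 members was 0.0019 with the covariate and 0.07 without it. With the covariate 4 of the 24 members, Dlk1, Peg13, Ube3a and Usp29, had an unadjusted p under 0.05, against 4.9% of all genes (limma). Of these, Usp29 passed the detection filter only through the control arrays and so had to differ. After adjustment 0 of all genes passed with the covariate (limma).

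**Figure D5:**
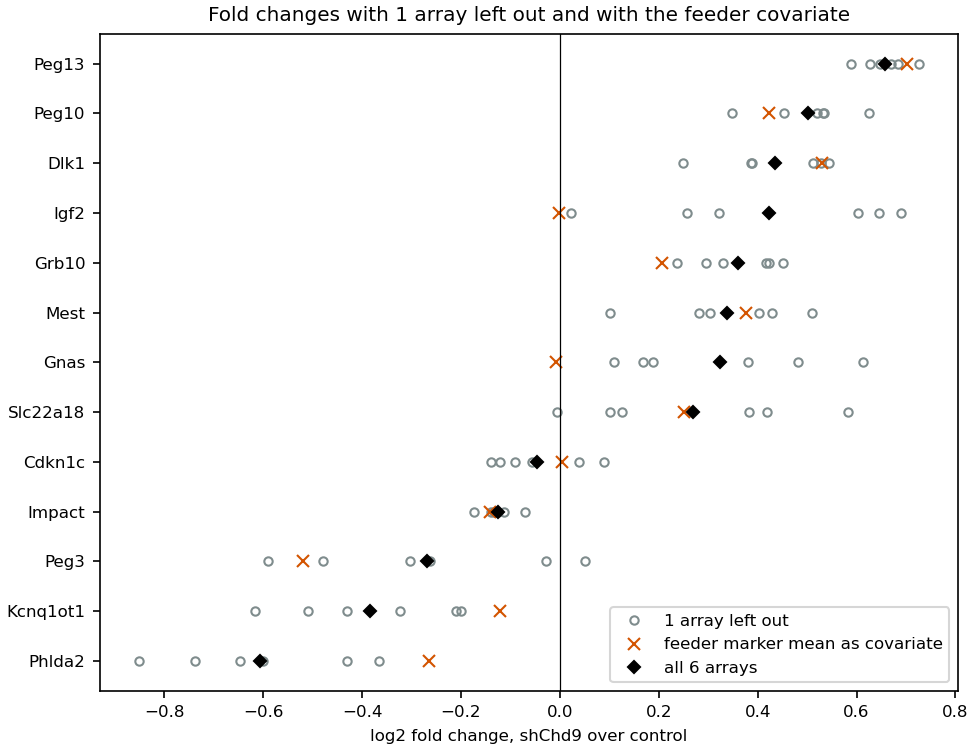
Log2 fold change of shChd9 over control for 13 imprinted genes from all 6 arrays (black diamonds), with each array left out in turn (open circles) and with the feeder mean as covariate (orange crosses). Peg13 ranged from 0.59 to 0.73 and Peg10 from 0.35 to 0.63 with an array left out, while Igf2 ranged from 0.02 to 0.69 and Peg3 from -0.59 to 0.05.

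Regulators of imprinting and other imprinted genes gave no call either. Of 30 regulators, among them the DNA methyltransferases, Zfp57, Trim28 and Ctcf, 20 were tested, with 7 positive and 13 negative log2 fold changes and a median of -0.07 against -0.0045 for all genes. Ezh2, the Polycomb methyltransferase, had a log2 fold change of -0.46 ± 0.20 (SE) at an adjusted p of 0.941, Kdm1b, a histone demethylase needed to set maternal imprints in mouse oocytes, -0.37 ± 0.18 at 0.954, and the methylcytosine dioxygenase Tet1 -0.29 ± 0.24 at 0.956 (limma). Of 40 further imprinted genes 21 were tested, with 11 positive and 10 negative values and a median of 0.01. Blcap, which lies around Nnat, measured 0.42 ± 0.17 at an adjusted p of 0.924, the oxysterol-binding protein gene Osbpl5 of the Kcnq1 region 0.62 ± 0.25 at 0.924, and the paraoxonase Pon2 of the Peg10 region 0.44 ± 0.20 at 0.954 (limma).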

How the data were processed

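RNA was measured in 3 shChd9 and 3 control samples, 1 bead array each, grouped by the transfection in the labels, with replicates numbered in order of deposit and not paired. The deposited raw table holds, per the file headers, an intensity on a linear scale and a detection p-value per probe and array. The submitters' processing notes name GenomeStudio; its settings are not given in the sources used here. The deposited series table holds quantile-normalized intensities (at most 1.59 from quantile-normalized raw values) and was used as an alternative.

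Intensities were corrected, offset by 16, quantile normalized and put on the log2 scale with neqc of limma 3.58.1 in R 4.3.3, the detection p-values standing in for negative control beads. Quantile normalization removes any overall difference between arrays. Probes detected at p under 0.05 on at least 3 arrays (17719) were fitted with lmFit and eBayes, two-sided. A gene was its probe with the highest mean, and adjustment ran over 10194 genes or all probes. Symbols came from GEO's platform annotation, updated through RefSeq gene identifiers (34885 probes with 1 symbol, 18 with several, 10378 with none). Probe intensities of different genes are not comparable levels. The fit was tested on simulated data.

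All 40 members are accounted for. Values on every array are given for members with an unadjusted p under 0.05, groups that do not overlap or one of the 6 widest SDs, and for a set of well-known members. Other lists give up to 3 genes by p. The members and lists were chosen with earlier results of these data known. Alternatives were other background corrections, median scaling, the deposited series table, other detection filters, the mean of a gene's probes, the feeder marker covariate and each array left out. The arrays shared 1 slide, with each group side by side on it, so that position and group cannot be told apart.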

Additional observations from a re-analysis of the deposited data

How the results depend on the processing

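No paired analysis was possible because the labels give no number or name that ties a sample of one group to one of the other, and replicate numbers here follow the order of deposit. In each of the 14 alternatives limma called 0 genes and, where run by probe, 0 imprinted probes. The median log2 fold change of the members stayed between 0.0019 and 0.18. The 4 members at an unadjusted p under 0.05 became 3 to 7 with an array left out, the 7 without shChd9 replicate 2. Of all genes, between 3.53% (without control replicate 2) and 7.72% (without shChd9 replicate 2) had such a p. The count of 4 and those with an shChd9 array left out include Usp29, which passed the detection filter only through the control arrays. With a control array left out Usp29 could not be tested, so these counts cover different members. Peg13 had an unadjusted p under 0.05 in 14 of 14 alternatives, Peg10 in 11, Dlk1 in 9 and Phlda2 in 8. Usp29 and Kcnq1 could be tested in 10 of the 14 and Kcnq1ot1 and Ascl2 in 13. Of 326 log2 fold changes of the 24 members under the alternatives, 18 turned in sign, in 10 members. With the feeder covariate Igf2 was -0.0011, Gnas -0.0077, Cdkn1c 0.0049, Ndn -0.029 and Zdbf2 0.019. Zdbf2 was 0.017 with median scaling, and Commd1 was -0.024 as the mean of its probes. With an array left out Peg3 ranged from -0.59 to 0.052, Slc22a18 from -0.0060 to 0.58, Cdkn1c from -0.14 to 0.090, Ascl2 from -0.36 to 0.025, Kcnq1 from -0.17 to 0.099, Commd1 from -0.055 to 0.075 and Zdbf2 from -0.14 to 0.029. The cause of these turns was not tested. The number of members related to the feeder marker mean at an adjusted p under 0.05 was 0 with and without background correction, and 0 by the slope within groups, a test chosen after seeing the data. Signal over background limits what can be said of Peg13, Usp29, Kcnq1ot1, Kcnq1 and Ascl2.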
